A study of Mus musculus with 4 samples.

Results

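The genes described here encode ion channels, their accessory subunits, ligand-gated receptors, chloride-proton exchangers and the plasma membrane pumps for sodium and calcium. They were taken by gene symbol from the deposited table of a muscle cell culture experiment, with the symbol patterns for potassium, sodium, calcium and chloride channels, anoctamins, TRP and Piezo channels, IP3 receptors, Na,K-ATPases, plasma membrane calcium ATPases, and purinergic and ionotropic glutamate receptors. The patterns matched 43 symbols, and Cacna1s and Ano5 were left out by the rule, which gave 41 of the 3760 genes in the table. Of these, 38 encode a channel, receptor, exchanger, pump or subunit. The other 3 matched by symbol alone: Grina is a glutamate receptor-associated membrane protein, Tmem161a is a transmembrane protein outside the anoctamin family, and Kcnq1ot1 is a noncoding RNA antisense to Kcnq1.

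The cells were cultured myoblasts from skeletal muscle of adult C57BL/6 mice, called twist2+ by the labels. All 4 groups were infected with a retrovirus for 24 h and then kept in growth medium for 24 h. The virus carried GFP in the control groups and Twist2-IRES-GFP in the others, so infection and GFP were shared by all groups while Twist2, a basic helix-loop-helix (bHLH) transcription factor, was not. The labels do not name the promoter that drives the virus or how many animals the cells came from. For each virus, 1 library was made in growth medium with 20% fetal bovine serum and 1 after 5 days in differentiation medium with 2% horse serum. The groups are called GFP growth, GFP differentiation, Twist2 growth and Twist2 differentiation below.

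With 1 library per group, no difference below could be checked against replicates, and library and condition cannot be told apart. Levels are in CPM, a gene's reads scaled to the total of its library. Ratios are log2 of CPM + 1, and a gene was counted as higher or lower when that ratio reached 1 (2-fold) and the higher library had at least 10 CPM. The intervals are exact 95% intervals of the log2 ratio of reads without the added 1, which is why a ratio of a gene with few reads can lie outside its own interval. They describe counting error only. The libraries held between 9235281 and 12362290 reads, of which 32926 to 50591 fell in the 41 genes. Twist2 had 1 read and 0 reads in the GFP growth and GFP differentiation libraries and 15915 and 8335 reads in the Twist2 growth and Twist2 differentiation libraries. These values follow the virus named in the labels. The GFP libraries held almost no Twist2 reads, although the labels call the cells twist2+. What that label refers to cannot be told from these values.

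When myoblasts leave the cell cycle and fuse, the resulting fibre becomes an excitable cell. Its membrane carries voltage-gated sodium channels that spread the action potential, and potassium and chloride conductances that end it. Voltage sensors built around the L-type calcium channel couple the action potential to calcium release, and the Na,K-ATPase and calcium pumps restore the ion gradients. Cycling myoblasts carry a different set of channels, and potassium channels are known to set the resting potential before fusion.

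Transcription factors of the bHLH class, which include Twist2 and the myogenic factors, bind the E-box, 6 bases that read CANNTG. Promoter windows of 300 bases (250 before to 50 after a start site) were available from RefSeq on GRCm38.p6 for 28 of the 41 genes. The 4 shown belong to the genes with 1 listed start site that were farthest apart after GFP differentiation, 2 lower (Scn9a and Grik3) and 2 higher (Kcne4 and Atp1b1), and capitals mark each CANNTG.
Scn9a, chr2:66634913-66635212, minus strand: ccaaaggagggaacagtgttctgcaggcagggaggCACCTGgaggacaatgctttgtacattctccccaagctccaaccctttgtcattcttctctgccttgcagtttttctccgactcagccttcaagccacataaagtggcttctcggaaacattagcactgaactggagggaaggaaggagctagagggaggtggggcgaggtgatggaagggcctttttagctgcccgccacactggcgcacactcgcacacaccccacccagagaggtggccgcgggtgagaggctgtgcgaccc
Grik3, chr4:125490446-125490745, plus strand: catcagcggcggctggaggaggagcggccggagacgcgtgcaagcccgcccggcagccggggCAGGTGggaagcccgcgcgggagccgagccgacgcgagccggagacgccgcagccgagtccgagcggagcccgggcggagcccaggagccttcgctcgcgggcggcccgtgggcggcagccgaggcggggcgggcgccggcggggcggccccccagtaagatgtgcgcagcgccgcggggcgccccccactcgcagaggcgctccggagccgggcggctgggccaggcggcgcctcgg
Kcne4, chr1:78816661-78816960, plus strand: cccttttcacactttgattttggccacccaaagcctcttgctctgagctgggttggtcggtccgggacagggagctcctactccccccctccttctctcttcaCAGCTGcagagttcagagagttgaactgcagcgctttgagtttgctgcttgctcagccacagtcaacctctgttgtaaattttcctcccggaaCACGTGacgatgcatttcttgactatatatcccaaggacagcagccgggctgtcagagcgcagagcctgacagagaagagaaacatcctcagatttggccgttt
Atp1b1, chr1:164458306-164458605, minus strand: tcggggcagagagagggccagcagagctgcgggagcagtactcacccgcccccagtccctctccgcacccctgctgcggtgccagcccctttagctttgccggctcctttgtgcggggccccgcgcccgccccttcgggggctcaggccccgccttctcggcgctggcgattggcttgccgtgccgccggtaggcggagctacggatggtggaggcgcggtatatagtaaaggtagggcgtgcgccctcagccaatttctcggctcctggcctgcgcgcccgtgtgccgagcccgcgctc
The Scn9a window holds 1 match, CACCTG, whose first base lies 215 bases before the start site, and the Grik3 window holds 1, CAGGTG, at 188 bases. The Kcne4 window holds 2, CAGCTG at 147 and CACGTG at 54 bases, and the Atp1b1 window holds 0. CANNTG reads the same on both strands and occurs in 72.3% of all 32851 windows of this length; CAGCTG, which is one form of it, occurs in 16.3%. The 28 genes have 42 such windows, of which 33 held at least 1 CANNTG and 10 at least 1 CAGCTG. Counted by gene, where any window may match, at least 1 CANNTG was found for 22 of the 28 and at least 1 CAGCTG for 6. A match is a string of letters, and these windows say nothing of binding.

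Differentiation of the GFP cells divided the genes evenly. After 5 days 16 of the 41 were higher by 2-fold or more, 16 were lower, and 9 differed by less. Over all 3694 listed genes with enough reads, 32.6% were higher and 40.9% lower. The median ratio of the 41 genes was 0.02, against -0.40 for all genes. The authors listed a gene only if it differed 2-fold from the GFP growth library in at least 1 of their comparisons, so a large share of called genes follows from that selection. The genes higher after differentiation included muscle calcium channel subunits, 4 of the 9 potassium channel genes, a Na,K-ATPase beta subunit and 2 purinergic receptors. Those lower included the other 5 potassium channel genes and the sodium channel gene Scn9a. Both IP3 receptors, both glutamate receptor subunits and the mechanosensitive channel gene Piezo2 were also lower. The even split depends on scaling: it was 19 higher and 9 lower when the reads of unlisted genes set the scale (the outside-table scaling), and 18 and 11 with median-of-ratios size factors or with ratios centred on the median of all genes. All genes moved likewise: of those called, 68.9% were higher with the outside-table scaling, against 67.9% of the called members, and 57.0% and 59.1% with the other 2 settings, against 62.1%.

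In the Twist2 cells 15 genes were at least 2-fold higher after differentiation and 9 lower, against 26.5% and 24.5% of all genes with enough reads. The median ratio was 0.80, against -0.22 for all genes. The lists overlap on the higher side: 13 genes were higher with both viruses, which is 81.3% of the 16 in GFP cells and 86.7% of the 15 in Twist2 cells. Over all genes these shares were 63.2% and 77.3%. On the lower side 6 genes were shared, 37.5% of the GFP list and 66.7% of the Twist2 list, where all genes gave 40.2% and 66.6%. No gene was counted in opposite directions. The split in Twist2 cells was 21 higher and 7 lower with the outside-table scaling and with median centring (75% higher), where all genes gave 1217 and 622 (66.2%) and 1197 and 655 (64.6%).

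**Figure D1:**
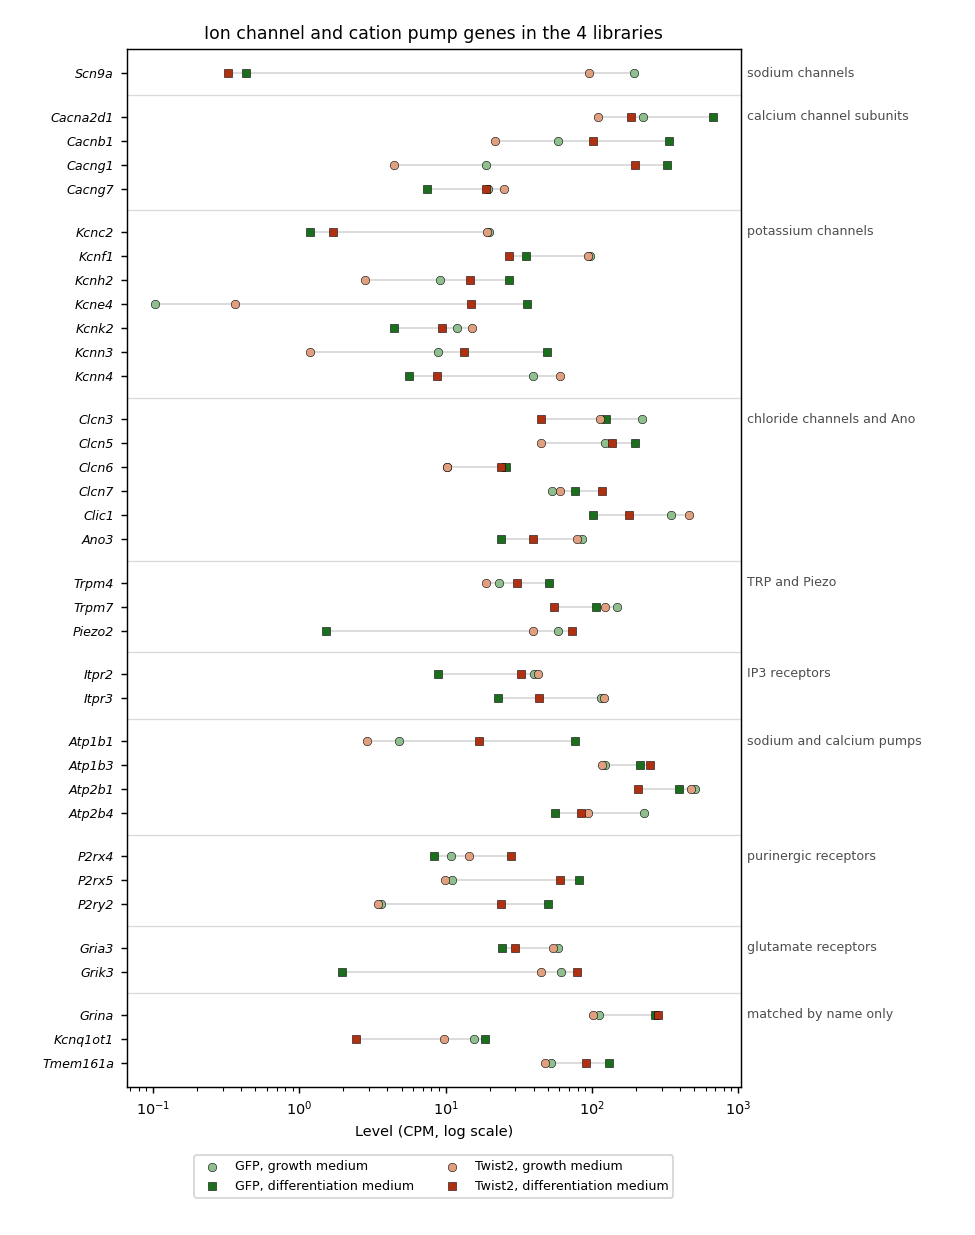
Levels of 35 of the genes in the 4 libraries, by role (x axis: CPM on a log scale, 1 point per library; grey lines join the lowest and highest library of a gene). Scn9a runs from 0.324 to 195 CPM, and Piezo2 and Grik3 are low in the GFP differentiation library alone.

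Scn9a was examined first, since voltage-gated sodium channels carry the action potential. It encodes the pore-forming subunit Nav1.7 and is best known from sensory neurons. Scn9a had 195 CPM in GFP growth and 96.0 CPM in Twist2 growth, and 0.433 and 0.324 CPM in GFP and Twist2 differentiation (4 reads in each). With each virus it was high in the growth library and nearly absent in the differentiated one. The ratio was -7.09 (interval -10.69 to -7.45) in GFP cells and -6.20 (-10.09 to -6.85) in Twist2 cells, the lowest of the 41 genes in each. With Twist2 in growth medium it was lower by a ratio of -1.01 (-1.13 to -0.91), a call lost with size factors (-0.77), median centring (-0.91) or a pseudocount of 5 CPM (-0.98). An annotated noncoding gene, Gm13629, overlaps Scn9a exons on the opposite strand, and the strand setting of the counting is not given in the sources used here.

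Of the 4 calcium channel subunits, 3 belong to the skeletal muscle L-type channel complex, whose pore, encoded by Cacna1s, is not counted here. Cacng1, the gamma-1 subunit, had 18.8 CPM in GFP growth and 4.43 CPM in Twist2 growth, and 326 and 197 CPM after differentiation. Cacnb1, the beta-1 subunit, had 58.3 and 21.7 CPM in the growth libraries and 337 and 102 CPM after differentiation, in GFP and Twist2 cells. Cacna2d1, the alpha2delta-1 subunit, had 225 and 110 CPM before and 674 and 184 CPM after. All 3 were higher after differentiation in GFP cells, with ratios of 4.05 for Cacng1 (3.90 to 4.34), 2.51 for Cacnb1 and 1.58 for Cacna2d1. In Twist2 cells Cacng1 had the highest ratio of all 41 genes, 5.19 (5.07 to 5.92), Cacnb1 was higher (2.18) and Cacna2d1 was at 0.73, below the threshold.

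The same 3 subunits were lower with Twist2 in growth medium, with ratios of -1.87 (Cacng1), -1.39 (Cacnb1) and -1.02 (Cacna2d1); the last lost its call with size factors (-0.78), median centring (-0.92) or a pseudocount of 5 CPM (-0.997). In differentiation medium Cacna2d1 (-1.87, interval -1.94 to -1.80) and Cacnb1 (-1.72) were lower with Twist2, and Cacng1 was at -0.72. Cacng7 encodes a gamma subunit that also binds AMPA-type glutamate receptors, and it went the other way. It had 19.4 CPM in GFP growth, 7.47 in GFP differentiation, 25.0 in Twist2 growth and 18.9 in Twist2 differentiation, so GFP differentiation was the low library. Its Twist2 to GFP ratio in differentiation medium was 1.23, or 0.69 with the outside-table scaling and 0.94 with a pseudocount of 5 CPM. Its ratio in GFP differentiation was -1.27, and it missed the threshold under the 3 other scalings and that pseudocount (-0.97 to -0.54).

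The 9 potassium channel genes split into 4 higher and 5 lower in GFP differentiation, and 4 higher and 3 lower in Twist2 differentiation. Over all genes with enough reads, 32.6% were higher and 40.9% lower in GFP differentiation, and 26.5% and 24.5% in Twist2 differentiation. Kcne4, an accessory subunit that modulates voltage-gated channels, had 1 read in GFP growth (0.103 CPM) and 4 reads in Twist2 growth (0.361 CPM), and 35.9 and 15.0 CPM after differentiation. It was thus close to absent before differentiation with either virus. Its ratio was 5.07 in GFP cells, the highest of the 41, with an interval of 5.96 to 13.76, and 3.55 in Twist2 cells (3.99 to 7.26).

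Kcnn3, the small-conductance calcium-activated channel SK3 of immature muscle, had 8.83 CPM in GFP growth and 1.17 CPM (13 reads) in Twist2 growth, and 49.6 and 13.3 CPM after differentiation. Kcnh2, the ERG1 channel, ran from 2.80 CPM in Twist2 growth to 27.3 CPM in GFP differentiation. Each of these 2 genes was higher after differentiation with both viruses, with ratios of 2.36 and 2.72 for Kcnn3 and 1.48 and 2.06 for Kcnh2 in GFP and Twist2 cells. In growth medium neither reached 10 CPM, so neither was counted there, although their Twist2 to GFP ratios were -2.18 (interval -3.88 to -2.06) and -1.41 (-2.34 to -1.10). After differentiation Kcnn3 (-1.82) and Kcne4 (-1.21) were lower with Twist2.

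The potassium channels lower after GFP differentiation included Kcnc2, Kcnn4, Kcnf1 and Kcnk2. Kcnn4, the intermediate-conductance calcium-activated channel found in many cycling cells, had 39.8 CPM in GFP growth and 60.5 CPM in Twist2 growth, and 5.63 and 8.74 CPM after differentiation. Kcnc2, the fast delayed rectifier Kv3.2, had 19.8 and 19.2 CPM in growth medium and 11 and 21 reads after, and Kcnf1, a silent subunit that modulates other channels, had 97.7 and 94.6 CPM before and 35.7 and 27.3 CPM after. All 3 were low after differentiation with either virus, with ratios in GFP and Twist2 cells of -2.62 and -2.66 for Kcnn4, -3.25 and -2.90 for Kcnc2 and -1.43 and -1.75 for Kcnf1 (GFP value -0.64 with the outside-table scaling). None of the 3 differed 2-fold between viruses in either medium.

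Kcnk2, the mechanically gated leak channel TREK-1, ranged from 4.44 CPM in GFP differentiation to 15.3 CPM in Twist2 growth, and its GFP ratio of -1.26 missed the threshold under each of the 3 other scalings and with a pseudocount of 5 CPM (-0.57 to -0.95).

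Among the chloride genes, the 4 CLC members are intracellular chloride-proton exchangers of endosomes and lysosomes. Clcn3 had 219 CPM in GFP growth, 125 in GFP differentiation, 113 in Twist2 growth and 44.7 in Twist2 differentiation. It was lowest after Twist2 differentiation, with a ratio of -1.32 (-1.48 to -1.19) against Twist2 growth and -1.47 (-1.64 to -1.34) against GFP differentiation. Clcn5 had 124, 197, 45.2 and 137 CPM in the same order, so Twist2 growth was the low library, with a ratio of -1.43 (-1.60 to -1.30) to GFP growth and of 1.58 for differentiation of the Twist2 cells. Clcn7, the lysosomal member, was highest in Twist2 differentiation (118 CPM) and lowest in GFP growth (53.5 CPM), and its ratios were 0.51 in GFP and 0.95 in Twist2 differentiation. They passed 2-fold with the outside-table scaling (1.30 and 1.20), and the second also with median centring (1.17). Clcn6 had 10.3 and 10.2 CPM in GFP and Twist2 growth and 25.8 and 23.8 CPM after differentiation, with ratios of 1.25 and 1.14 (the latter 0.92 with a pseudocount of 5 CPM). Per kilobase of exon, Clcn3 made up 36.1% of the sum of the 4 in GFP growth and 6.41% in Twist2 differentiation, and Clcn7 28.5% and 54.4%.

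Clic1, a chloride intracellular channel protein that also occurs in soluble form, had 349 CPM in GFP growth, 102 in GFP differentiation, 464 in Twist2 growth and 180 in Twist2 differentiation. It was lower after differentiation with both viruses, -1.77 and -1.36, though -0.98 in GFP cells with the outside-table scaling. It was the gene with the highest level per kilobase of exon in both growth libraries (194 and 258 CPM per kb). Ano3, an anoctamin, had 86.1 and 79.4 CPM in growth medium and 23.8 and 39.4 CPM after differentiation, with ratios of -1.81 and -0.99.

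Piezo2 and Grik3 had the same order of libraries. Piezo2 encodes a mechanically activated cation channel of touch and proprioceptive neurons, and Grik3 a kainate-type glutamate receptor subunit. Piezo2 had 58.6 CPM in GFP growth, 1.52 CPM (14 reads) in GFP differentiation, 39.7 CPM in Twist2 growth and 73.1 CPM in Twist2 differentiation. Grik3 had 61.8, 1.95 (18 reads), 45.0 and 78.9 CPM in the same order. For both, GFP differentiation was far below the other 3 libraries, which differed among themselves by less than 2-fold in CPM.

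Their ratios in GFP differentiation were -4.57 (-6.15 to -4.51) for Piezo2 and -4.41 (-5.75 to -4.31) for Grik3, and in Twist2 differentiation 0.87 (0.72 to 1.05) and 0.80 (0.65 to 0.97). The Twist2 values passed 2-fold with the outside-table scaling (1.12 and 1.05) and with median centring (1.09 and 1.02). In differentiation medium the Twist2 to GFP ratio was 4.88 (4.84 to 6.47) for Piezo2 and 4.76 (4.67 to 6.10) for Grik3, and the next of the 41 genes, Itpr2, stood at 1.78. The difference of the differentiation responses, Twist2 minus GFP, was 5.43 and 5.21, the largest values among the 41. Over all genes 25.5% had a difference of at least 1 and 12.6% one of at most -1; 8 and 4 of the 41 did. After these 2 genes came Atp2b4 (1.87) and Itpr2 (1.69), and P2rx4 (1.25) and Cacng1 (1.14) were also among the 8. The 4 lower included Kcnq1ot1 (-1.88), Atp1b1 (-1.54) and Kcne4 (-1.51), and they numbered 9 with the outside-table scaling and 7 with size factors. The other glutamate receptor gene, Gria3, an AMPA receptor subunit, had 58.8 and 53.8 CPM in growth medium and 24.4 and 29.8 CPM after differentiation, and its GFP ratio of -1.24 missed the threshold under the 3 other scalings (-0.90 to -0.46).

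**Figure D2:**
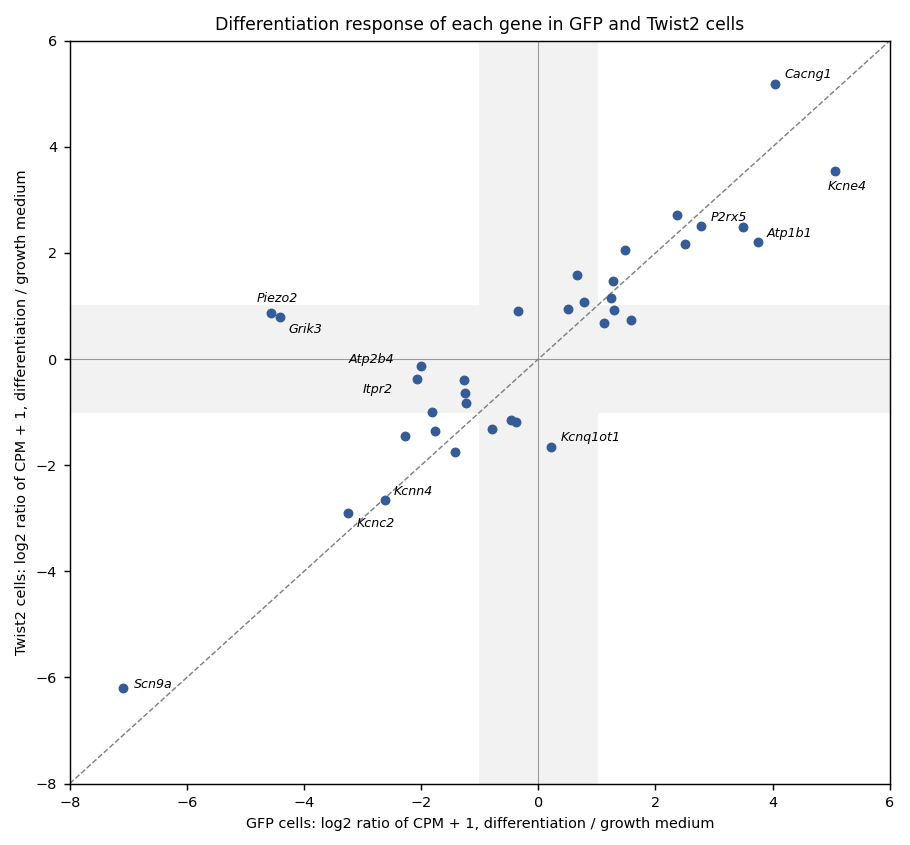
Differentiation response of 35 of the genes in GFP cells (x axis) and Twist2 cells (y axis), both as log2 ratios of CPM + 1, 1 point per gene; grey bands mark less than 2-fold and the dashed line equal responses. Piezo2 and Grik3 lie far to the left of the dashed line, at -4.57 and -4.41 in GFP cells with positive values in Twist2 cells, and Scn9a is lowest in both.

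The 2 TRP channels of the melastatin type differed less. Trpm4, a monovalent cation channel opened by calcium, ran from 18.9 CPM in Twist2 growth to 51.2 CPM in GFP differentiation, with ratios of 1.12 in GFP and 0.68 in Twist2 cells. Trpm7, a magnesium and calcium channel joined to a kinase, ran from 54.9 CPM in Twist2 differentiation to 148 CPM in GFP growth, and its ratio in Twist2 cells was -1.15, or -0.89 with the outside-table scaling and -0.93 with median centring.

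IP3 receptors release calcium from the endoplasmic reticulum in response to inositol trisphosphate. Itpr3 had 115 CPM in GFP growth, 22.8 in GFP differentiation, 121 in Twist2 growth and 43.8 in Twist2 differentiation. Itpr2 had 40.4, 8.88, 43.0 and 32.9 CPM in that order. Both were lowest in GFP differentiation and nearly equal between viruses in growth medium (ratios 0.08 and 0.09, with intervals that include 0). The ratio in GFP differentiation was -2.28 (-2.55 to -2.11) for Itpr3 and -2.07 (-2.55 to -1.84) for Itpr2, and in Twist2 differentiation -1.44 and -0.38. In differentiation medium Itpr2 was higher with Twist2 (1.78, interval 1.55 to 2.25) and Itpr3 was at 0.91.

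The Na,K-ATPase exchanges sodium for potassium with a catalytic alpha and a stabilising beta subunit. Atp1b1, the beta-1 form, had 4.82 and 2.89 CPM in GFP and Twist2 growth and 77.1 and 16.9 CPM after differentiation. With each virus the growth library lay below the differentiated one, and the ratios were 3.75 (3.57 to 4.46) and 2.20 (2.01 to 3.13). Atp1b1 was lower with Twist2 in differentiation medium (-2.12, interval -2.42 to -1.96). Atp1b3, the beta-3 form, had 124 CPM in GFP growth, 212 in GFP differentiation, 118 in Twist2 growth and 249 in Twist2 differentiation, with ratios of 0.77 and 1.07 for differentiation. The GFP value passed 2-fold under the 3 other scalings (1.12 to 1.57).

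Per kilobase of exon, Atp1b1 made up 2.94% of the sum of the 2 listed beta genes in GFP growth and 22.01% in GFP differentiation, and 1.86% and 4.99% in Twist2 cells. On the CPM scale the sums were 114 and 110 CPM per kb in GFP and Twist2 differentiation, but their ratio depends on scaling, since the outside-table factors of these libraries were 1.477 and 0.976. Exons of Nme7 overlap those of Atp1b1 on the opposite strand, as do Gm11629 for Cacnb1, A430027H14Rik for Kcnk2, Muc15 for Ano3 and Itpr3os for Itpr3.

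Plasma membrane calcium ATPases export calcium from the cell. Atp2b4 had 227 CPM in GFP growth, 55.8 in GFP differentiation, 93.5 in Twist2 growth and 84.9 in Twist2 differentiation. GFP growth was thus the high library, and the Twist2 libraries lay close together, with a ratio of -0.14 against -2.01 (-2.17 to -1.89) in GFP cells. In growth medium Atp2b4 was lower with Twist2 (-1.27, -1.39 to -1.17), and in differentiation medium the ratio was 0.60, or 0.01 with the outside-table scaling. Atp2b1, the broadly expressed form, had 510, 392, 473 and 208 CPM in the same order and was lowest in Twist2 differentiation, with a ratio of -1.18 to Twist2 growth (-0.92 with the outside-table scaling and -0.96 with median centring).

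**Figure D3:**
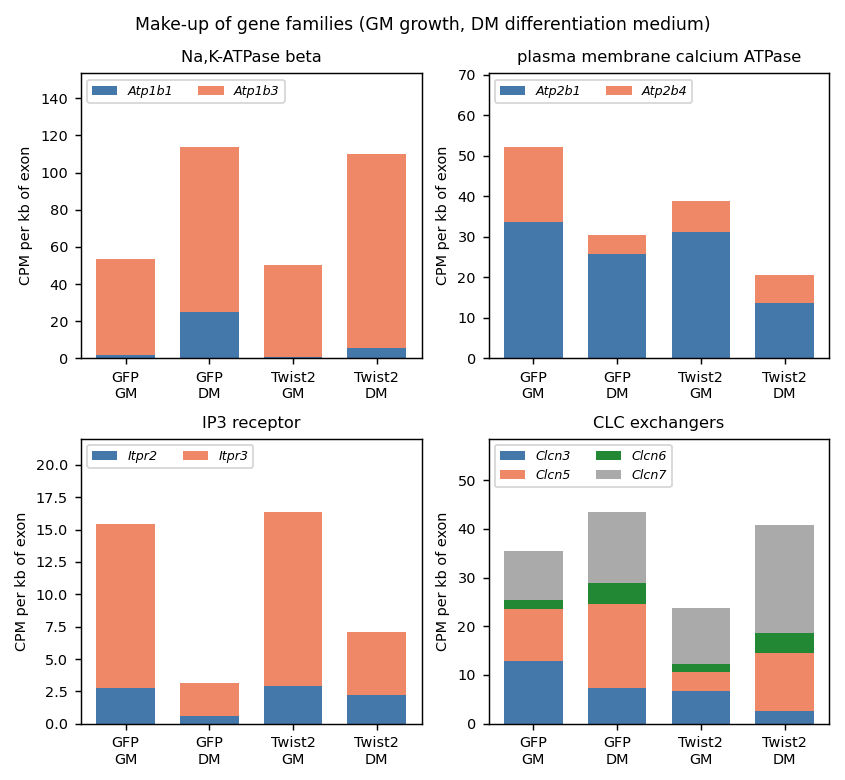
Level per kilobase of annotated exon (y axis, CPM per kb) of the listed members of 4 families in the 4 libraries (x axis), stacked by gene; GM is growth and DM differentiation medium. Atp1b1 appears mainly in the differentiated libraries, and the Clcn3 part is smallest in Twist2 differentiation.

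Purinergic receptors respond to extracellular nucleotides. P2rx5, an ATP-gated channel, had 11.0 and 9.85 CPM in GFP and Twist2 growth and 81.3 and 60.7 CPM after differentiation. P2ry2, a G protein-coupled receptor and not a channel, had 3.59 and 3.43 CPM before and 50.5 and 23.9 CPM after. Both were low in growth medium and higher after differentiation with either virus, with ratios of 2.78 and 2.51 for P2rx5 and 3.49 and 2.49 for P2ry2. P2ry2 was lower with Twist2 in differentiation medium (-1.04), a call lost with median centring (-0.99) or a pseudocount of 5 CPM (-0.94). P2rx4, another ATP-gated channel, had 10.9 CPM in GFP growth, 8.34 in GFP differentiation, 14.5 in Twist2 growth and 28.1 in Twist2 differentiation, and its ratio of Twist2 to GFP in differentiation medium was 1.64 (1.39 to 2.13).

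Of the genes matched by symbol alone, Kcnq1ot1 had 15.7 CPM in GFP growth, 18.5 in GFP differentiation, 9.76 in Twist2 growth and 2.43 CPM (30 reads) in Twist2 differentiation. It was the lowest of the 41 in differentiation medium, with a Twist2 to GFP ratio of -2.51 (-3.54 to -2.37). Its ratio in Twist2 differentiation was -1.65, not counted because both libraries were under 10 CPM. Its reads cannot be told apart from those of Kcnq1 on the opposite strand if strand was not used in counting. Grina had 112 and 102 CPM before and 271 and 286 CPM after, and Tmem161a 52.4 and 47.5 CPM before and 130 and 91.3 CPM after, in GFP and Twist2 cells.

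Twist2 was compared with GFP within each medium. In growth medium 0 of the 35 genes with enough reads were at least 2-fold higher with Twist2 and 9 were lower. All genes with enough reads gave 5.21% higher and 10.6% lower. The 9 lower genes included Scn9a, Cacna2d1, Cacnb1, Cacng1, Clcn5 and Atp2b4. The highest ratios, for Kcnn4 (0.59, interval 0.42 to 0.79) and Clic1 (0.41), stayed under 2-fold. The median of the 41 was -0.14, and of all genes -0.10. With size factors 7 members were lower and 0 higher, while all genes turned from 183 higher and 372 lower to 272 and 251. Small negative ratios then turned positive, such as those of Kcnf1 (-0.05 to 0.19) and Atp2b1 (-0.11 to 0.13).

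In differentiation medium 6 of 37 genes with enough reads were higher with Twist2 and 10 lower, against 25.4% and 25.2% of all genes with enough reads. The median was -0.37 over the 41 genes and -0.06 over all genes. Among genes with enough reads the medians were -0.51 and -0.19. The higher ones included Piezo2, Grik3, Itpr2, P2rx4 and Cacng7. The lower ones included Kcnq1ot1, Atp1b1, Cacna2d1, Kcnn3, Cacnb1, Clcn3, Kcne4 and P2ry2. With the outside-table scaling the split was 4 higher and 20 lower (16.7% higher), and that of all genes 503 and 1526 (24.8%). With Twist2, 3 genes were lower in both media, Cacna2d1 and Cacnb1 among them, which is 33.3% of the growth medium list and 30.0% of the differentiation medium list (48.4% and 20.8% over all genes).

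**Figure D4:**
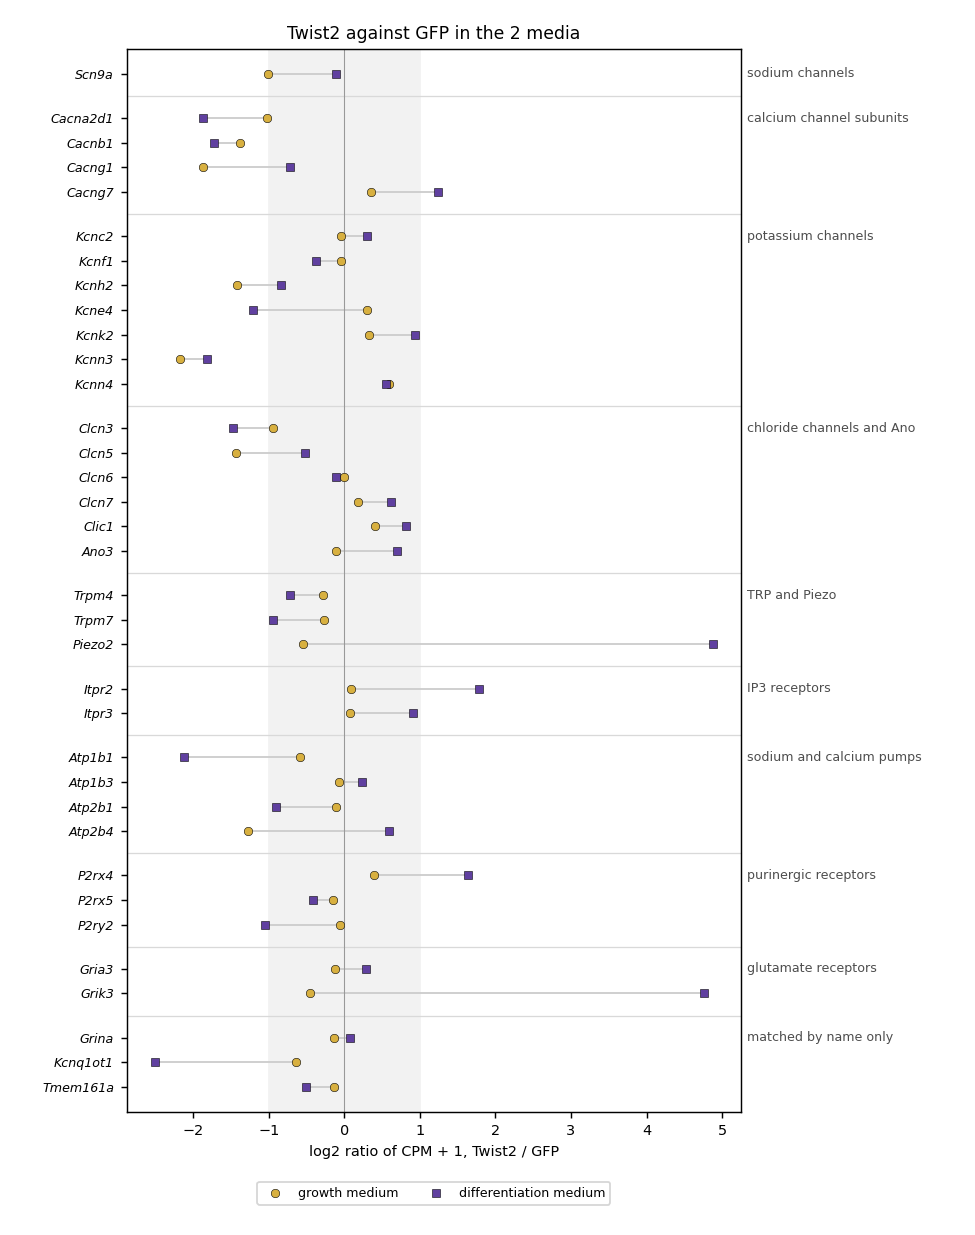
Log2 ratio of CPM + 1 of Twist2 to GFP (x axis) in growth medium (circles) and differentiation medium (squares) for 35 of the genes by role; the grey band marks less than 2-fold. No circle lies above 1, while the squares of Piezo2 and Grik3 stand at 4.88 and 4.76.

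Other genes of excitation and calcium handling were taken from lists. For comparison, 32.6% of all genes with enough reads were higher and 40.9% lower in GFP differentiation, and 26.5% and 24.5% in Twist2 differentiation. With Twist2 these shares were 5.21% and 10.6% in growth medium and 25.4% and 25.2% in differentiation medium. Of 34 triad and calcium store genes the table held 17, Cacna1s and Ano5 among them. All 17 were at least 2-fold higher after differentiation with each virus (median 2.91 in GFP and 3.55 in Twist2 cells), 11 were lower with Twist2 in growth medium and 10 in differentiation medium. Cacna1s, the L-type pore, had 2.46 CPM in GFP growth, 637 in GFP differentiation, 0.271 CPM (3 reads) in Twist2 growth and 137 in Twist2 differentiation, the same order of libraries as Cacng1 and Cacnb1. Of 39 channel and pump partner genes the table held 14, of which 9 were higher and 3 lower in GFP differentiation and 8 and 2 in Twist2 differentiation. With Twist2, 1 was higher and 6 were lower in growth medium, and 1 and 5 in differentiation medium. Abcc9, a subunit of ATP-sensitive potassium channels, had 0.308 and 0.0904 CPM in the GFP and Twist2 growth libraries (at most 3 reads) and 51.0 and 20.0 CPM after differentiation.

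Of 27 other ligand-gated and gap junction channel genes the table held 8, with 5 higher and 2 lower in GFP differentiation and 5 and 1 in Twist2 differentiation. With Twist2, 1 was higher and 4 were lower in growth medium, and 2 and 3 in differentiation medium. The gap junction gene Gja1, which encodes connexin-43, was lowest in GFP differentiation, as Piezo2 and Grik3 were. It had 226 CPM in GFP growth, 2.82 in GFP differentiation, 473 in Twist2 growth and 268 in Twist2 differentiation.

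Marker genes of cell state moved with these comparisons, and their part in the results was not tested. The 10 listed markers of differentiated muscle summed to 715 CPM in GFP growth, 73707 in GFP differentiation, 64.6 in Twist2 growth and 11573 in Twist2 differentiation; 8 of 10 were lower with Twist2 in growth medium and 10 of 10 in differentiation medium. In such bulk libraries fewer differentiated cells and less RNA per cell cannot be told apart. All 7 proliferation markers were lower after differentiation with each virus, with sums of 832, 29.2, 1320 and 153 CPM in the same order. Of 9 fibro-adipogenic and fibroblast markers 3 were listed, and their sum, mostly Col3a1, was 820, 561, 3086 and 8818 CPM. Dcn had 64.6 CPM in Twist2 differentiation and 1.19 CPM in GFP differentiation, where Ly6a had 0 reads. In GFP differentiation 0 of the 3 were higher and 1 lower, and in Twist2 differentiation 2 were higher and 1 lower. The lower one in Twist2 cells was Ly6a (32.9 to 3.32 CPM). With Twist2, 3 were higher in growth medium and 2 in differentiation medium. The 6 listed of 10 pericyte and smooth muscle markers summed to 2088, 14523, 1014 and 8330 CPM. Acta2 (361, 7948, 113 and 5050 CPM) and Des, also a muscle gene, made up most of each sum. Of the 6, 3 were higher and 3 lower in GFP differentiation, and 4 and 2 in Twist2 differentiation. Those lower in GFP cells were Rgs5 (51.7 to 0.108 CPM), Mcam (48.1 to 15.7 CPM) and Notch3, which had 126, 4.98, 71.5 and 313 CPM. Of 7 Schwann and neural markers 1 was listed, Tubb3 (70.4, 9.20, 78.5 and 13.4 CPM), and of the 6 endothelial and the 6 macrophage markers 0 were listed. Of 7 myoblast and satellite cell markers 6 were listed, with sums of 4999, 13107, 2444 and 7929 CPM, among them Myod1, with 547 to 1184 CPM in the 4 libraries. In GFP differentiation 2 of the 6 were higher, Des and Itga7, and 2 lower (median -0.06). The lower ones were Pax7 (78.7 to 4.01 CPM) and Vcam1 (101 to 18.0 CPM). In Twist2 differentiation 3 were higher and 1 lower (median 1.34).

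Channel genes are long, and length moved with some ratios. Of the 41 genes, 16 fell in the longest of 5 length groups of the table (at least 8786 exonic bases). In the Twist2 differentiation comparison the median of all genes ran from 0.49 in the shortest to -0.60 in the longest group, and in differentiation medium from 0.41 to -0.70. Piezo2 and Grik3, with 17162 and 8973 exonic bases, were in the longest group and stood at 4.88 and 4.76 there. The part of length in any ratio, those of Piezo2 and Grik3 included, was not tested.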

How the data were processed

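The authors deposited 1 table with a CPM value (reads of a gene scaled to its library's total) per gene and library, per the file headers, and 3 columns of log2 ratios against GFP growth, which equal log2 ratios of CPM + 1 and were used only for that check. TopHat2 2.0.0, DESeq2 1.6.3 and the build GRCm38 (mm10) appear in the submitters' processing notes, with no role stated. The counting tool, gene annotation and use of strand are not given in sources used here. Every listed gene reaches 10 CPM in 2 or more libraries and an absolute log2 ratio of 1 in 1 or more of the authors' columns; other genes were not analysed here. All CPM values were whole multiples of 1 read (within 0.001 reads), which gave reads and library totals.

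Ratios were computed over all 3760 genes, with a pseudocount of 1 CPM and Clopper-Pearson intervals of the read ratio (Python 3.11.15, scipy 1.17.1). PCR copies are not separated, so intervals hold counting error alone. With 1 library per group no test was run and no p-value is given. On simulated counts for each of the 4 comparisons (3760 genes), 100% of genes changed 3-fold or 8-fold were recovered. Intervals covered 94.5% to 96.5% of the true ratios of these changed genes. The simulated counts carried counting error alone, which is what the intervals assume. The changed genes were drawn from those with mean levels above the 10 CPM minimum. Recovery and coverage thus say nothing of variation between cultures or of genes with few reads. Alternatives were pseudocounts of 0.1 and 5 CPM, 3 other scalings and no CPM minimum. Exonic bases are the union of exons in GENCODE M21. The named genes are the 6 highest and 6 lowest ratios per comparison (4 for the difference of responses) and the top genes per length; others are given within their role. Counts and medians cover all 41 genes, and 6 of them are not reported here by name or drawn. Members, lists and rules were chosen with earlier results of these data known.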

Additional observations from a re-analysis of the deposited data

Results flagged for a closer look

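Some genes went one way with one virus or medium and the other way with the other; each direction rests on 1 library per group, and the difference was not tested. Across differentiation, Piezo2 had a ratio of -4.57 in GFP cells and 0.87 in Twist2 cells, and Grik3 -4.41 and 0.80. For Twist2 against GFP, Piezo2 had -0.55 in growth medium and 4.88 in differentiation medium, and Grik3 -0.45 and 4.76. At the main setting no gene was counted in opposite directions, since the smaller value of each pair was under 2-fold. The 0.87 and 0.80 passed 2-fold with the outside-table scaling (1.12 and 1.05) and with median centring (1.09 and 1.02). Atp2b4 had -1.27 in growth medium and 0.60 in differentiation medium, but the second value was 0.01 with the outside-table scaling, where no opposite direction is left.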

How the results depend on the processing

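No paired analysis was possible because each group has 1 library, and for the same reason no replicate could be left out. Of the 60 recomputed counts of members, 56 stayed within 1.5 times the main count. The exceptions were the genes lower after GFP differentiation (9, against 16), those lower with Twist2 in differentiation medium (20, against 10) and those with a lower difference of responses (9, against 4), all with the outside-table scaling, and the last also with size factors (7). No called ratio changed sign under any of the 6 alternatives. The call held under all of them for 16 of 16 genes higher and 9 of 16 lower in GFP differentiation, 14 of 15 and 7 of 9 in Twist2 differentiation, 7 of 9 lower in growth medium, and 4 of 6 higher and 9 of 10 lower in differentiation medium. Of the higher differences of responses, Cacng1 lost the call under the 3 other scalings and a pseudocount of 5 CPM (0.56 to 0.96), and P2rx4 with the outside-table scaling (0.76) and size factors (0.98). With the outside-table scaling the median over all genes moved by 0.78, 0.25, -0.05 and -0.57 for differentiation of the GFP and the Twist2 cells and for Twist2 against GFP in growth and in differentiation medium, and with size factors by 0.34, 0.04, 0.23 and -0.06. The listed genes held 39.3% of the reads in GFP growth, 65.1% in GFP differentiation, 36.9% in Twist2 growth and 47.2% in Twist2 differentiation. The outside-table factors are set by the share of reads left over. Why these shares differ, and what moved the size factors, was not tested. Counting error limits genes with few reads, such as Scn9a after differentiation.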
